A study of Mus musculus with 18 samples.

Results

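The granule genes described here are 10 genes of neutrophils, mast cells and basophils: Mpo, Elane, Ctsg, Prtn3, Lcn2, Cpa3, Hdc, Ms4a2, Fcer1a and Itgam. They were taken from a named list, out of 22180 genes measured, and each is represented by 1 probe set. RNA came from sorted mouse cells on 18 Affymetrix arrays, 3 in each of 6 groups. The lymphoma groups CLP, DN1, DN2, DN3 and DN4 are sorted fractions of lymphomas of the thymus, and the series design names 3 lymphomas. These tumours arose in Lck-Cre transgene mice that were sublethally irradiated and received bone marrow infected with a retrovirus carrying NPM-ALK, an oncogenic tyrosine kinase found in anaplastic large cell lymphomas (ALCL), and they were taken from moribund mice of unstated age. Lck drives Cre in T lineage cells, so the oncogene is meant to act in early T cells, while the labels do not say which host blood cells remained. The group they were set against, LSK, holds lineage-negative, SCA1-positive, KIT-positive cells from bone marrow of healthy wildtype mice that were 18 months old. Tissue, genotype and the irradiation with transfer of infected bone marrow thus change together between lymphoma and LSK and cannot be told apart. Age may differ as well, since that of the lymphoma mice is not given.

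Granulocytes and mast cells store enzymes and mediators in granules and release them on activation. Neutrophil primary granules form early, in the promyelocyte stage, and hold myeloperoxidase (Mpo) and the serine proteases neutrophil elastase (Elane), proteinase 3 (Prtn3) and cathepsin G (Ctsg), while lipocalin 2 (Lcn2), which binds bacterial siderophores, belongs to the later secondary granules. Mast cells and basophils store histamine, made by histidine decarboxylase (Hdc), and mast cells also store carboxypeptidase A3 (Cpa3). Both carry the high-affinity IgE receptor, whose alpha and beta chains are Fcer1a and Ms4a2. Itgam encodes CD11b, the integrin alpha chain that pairs with CD18 (Itgb2) on myeloid cells. RNA of primary granule genes is already present in part of the multipotent progenitors of mouse bone marrow, and the Cpa3 promoter is known to be active in early T cell progenitors of the mouse thymus as well as in mast cells.

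The promoter sequences of the 4 primary granule genes, which fell together, and of Cpa3, which did the opposite, are shown first. The myeloid factor PU.1 (gene Spi1) is known to act on myeloid promoters. This grouping follows the values, and the motif letters were chosen after the values were seen, so no cause is tested here. Each is the 250 bases before the annotated start, 5′ to 3′, from RefSeq (GRCm38.p6, which is not stated to be the build of the arrays). Capitals mark matches on either strand to the core letters of 4 motifs: GAGGAA (PU.1), TGTGGT (RUNX), GATAA (GATA) and TTGCNNAA (C/EBP).
Mpo (chr11:87793534-87793783, plus strand): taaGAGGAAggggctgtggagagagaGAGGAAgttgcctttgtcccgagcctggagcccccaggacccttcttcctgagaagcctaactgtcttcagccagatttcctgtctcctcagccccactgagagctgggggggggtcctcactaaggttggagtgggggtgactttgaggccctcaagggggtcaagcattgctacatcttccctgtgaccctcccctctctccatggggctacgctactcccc
Elane (chr10:79886062-79886311, plus strand): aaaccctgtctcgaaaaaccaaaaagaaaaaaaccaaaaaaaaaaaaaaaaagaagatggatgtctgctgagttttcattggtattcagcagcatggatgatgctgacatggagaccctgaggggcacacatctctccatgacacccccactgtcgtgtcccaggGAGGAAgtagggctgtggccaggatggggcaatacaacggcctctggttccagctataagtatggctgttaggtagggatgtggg
Prtn3 (chr10:79879417-79879666, plus strand): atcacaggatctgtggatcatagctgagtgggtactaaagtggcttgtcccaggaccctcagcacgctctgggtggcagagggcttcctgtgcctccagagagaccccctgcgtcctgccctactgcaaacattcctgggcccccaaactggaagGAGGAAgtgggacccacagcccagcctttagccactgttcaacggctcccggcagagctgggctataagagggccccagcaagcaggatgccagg
Ctsg (chr14:56102575-56102824, minus strand): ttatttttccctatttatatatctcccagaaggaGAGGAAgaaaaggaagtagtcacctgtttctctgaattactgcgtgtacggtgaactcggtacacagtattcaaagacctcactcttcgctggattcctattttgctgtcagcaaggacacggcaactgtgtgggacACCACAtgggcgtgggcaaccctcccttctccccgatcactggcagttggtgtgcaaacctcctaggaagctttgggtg
Cpa3 (chr3:20242182-20242431, minus strand): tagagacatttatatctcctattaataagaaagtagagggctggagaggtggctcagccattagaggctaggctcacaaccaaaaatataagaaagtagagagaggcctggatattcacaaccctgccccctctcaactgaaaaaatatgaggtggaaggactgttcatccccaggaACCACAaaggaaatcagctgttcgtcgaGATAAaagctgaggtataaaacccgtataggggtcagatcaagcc

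GAGGAA occurred in the promoters of 4 of 4 primary granule genes, with its first base at 247 and 224 bases before the start in Mpo, 85 in Elane, 95 in Prtn3 and 216 in Ctsg. Over all 32851 promoter windows of the same length, 23.3% held it. Among the 10 granule genes 7 held it, and Cpa3, Hdc and Ms4a2 did not. All of these 7 but Lcn2 were called lower in lymphoma than in LSK, as given below, and so was Hdc, which lacked it. Of the genes so called, Fcer1a was not above background on any array, and its call was lost in some alternative settings. The Cpa3 window held TGTGGT at 73 and GATAA at 45 bases before the start, letters found in 14.0% and 22.6% of all windows. Each was in 3 of the 10 windows, TGTGGT also in Ctsg and Fcer1a, and GATAA also in Ms4a2 and Fcer1a. TTGCNNAA was in 2 of the 10 windows, those of Lcn2 and Fcer1a, against 9.56% of all. These are matches of letters, not sites shown to be bound, and their part in the differences was not tested.

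The arrays give log2 RMA signals, so a difference of 1 is a doubling. A background gauge was taken on each array from 1108 probe sets of olfactory receptors, a family with little or no expression in blood, as the 95th percentile of their signals, and it lay between 5.36 and 5.71. Labels were checked on markers. The summed linear signal of 6 measured T cell markers was 18300 to 27500 in the lymphoma fractions and 990 to 1260 in LSK, and that of 6 progenitor markers was 399 to 2060 in the fractions and 5950 to 6570 in LSK. Of those 6, the sort marker Kit was above the gauge on all 3 arrays of every fraction. The description fields name NIPA knockout or wild-type mice, with a dose of 4 Gy for 12 arrays, against the titles and genotype fields, and the titles were followed. That dose is named for LSK array 3 but not for LSK arrays 1 and 2. It is also named for CLP arrays 1 and 2 and all DN1, DN2 and DN3 arrays, but not for CLP array 3 or DN4. Among the LSK arrays, Xist reads 3.55, 10.74 and 10.0, and the Y-linked Eif2s3y 8.42, 7.43 and 4.69, so arrays 2 and 3 stand apart from array 1 and from the lymphoma arrays (Xist 3.81 to 5.03, Eif2s3y 8.62 to 9.44) in sex-linked RNA, and the labels give no sex. None of the granule genes lies on X or Y. The labels do not say whether arrays with the same replicate number come from the same animal, so p values measure the spread between these arrays. Where the lymphoma mean is set against LSK, they measure the spread of 3 means of 5 fraction arrays and of 3 single LSK arrays. The SD of a lymphoma mean is that of 3 such means, so it is not a like measure to the LSK SD. In sorted bulk RNA, fewer cells that express a gene and less RNA per cell cannot be told apart.

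Myeloperoxidase and the neutrophil serine proteases were strongly expressed in LSK and lay at or close to background in every lymphoma fraction. Cpa3 went the other way and was highest in CLP. Lcn2 and Itgam differed among the fractions, both with their highest level in DN1, and the remaining mast cell genes were near or below background in all groups. Taking the mean of the 5 fractions per replicate number against LSK (3 values each), limma called 7 of the 10 genes lower, where 15.8% of all genes were called lower, and 1 higher, where 13.1% were called higher. Lcn2 and Ms4a2 did not pass, though Ms4a2 passed with the trended robust prior (adjusted p = 0.0492), with all 18 arrays in 1 model (0.0189), without CLP (0.0485) and without LSK array 3 (0.0306). For 6 of the 10 genes all 15 lymphoma arrays lay below all 3 LSK arrays, which was so for 10.4% of all genes. The median log2 difference of the 10 genes was -1.54, against 0.055 over all genes.

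**Figure D1:**
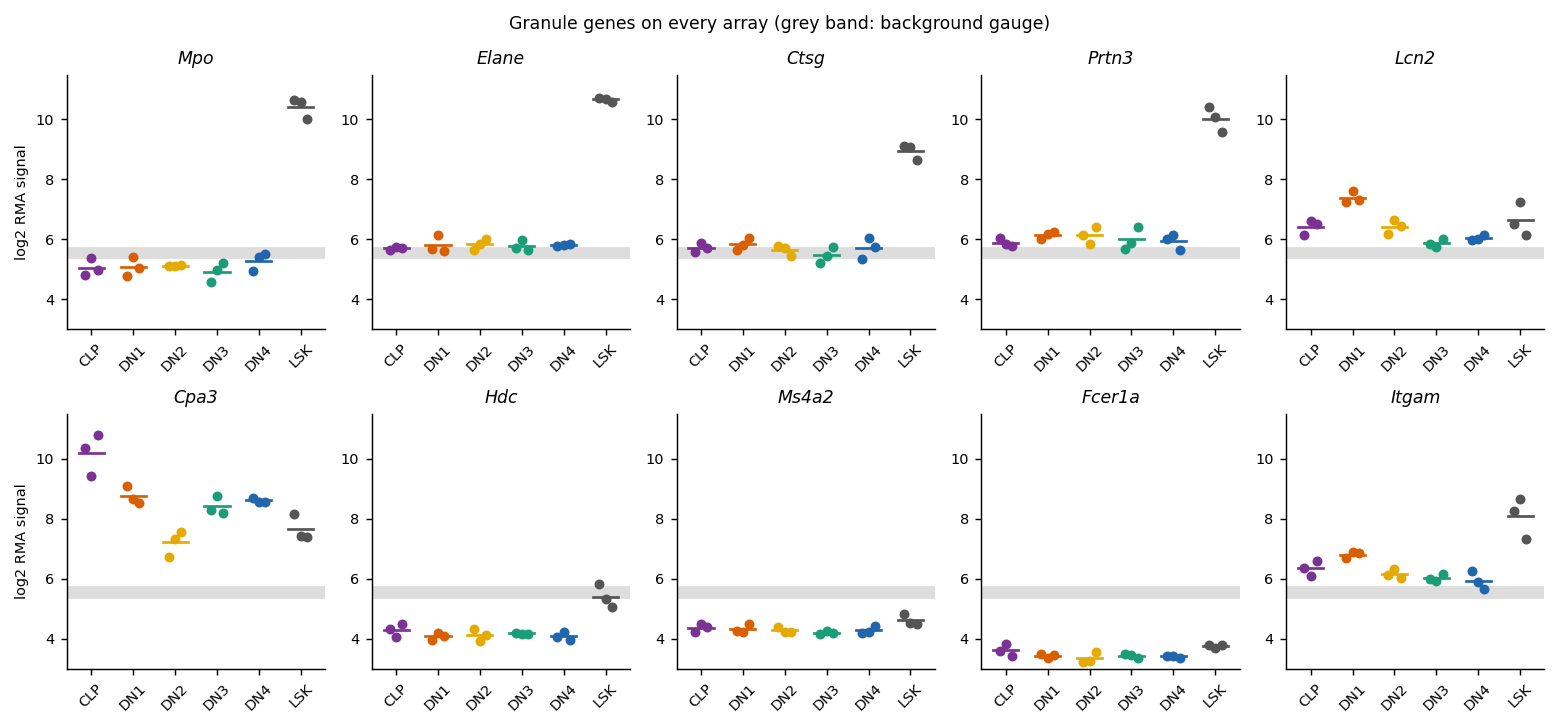
Log2 RMA signal of each granule gene on every array; points are the 3 arrays of a group, horizontal lines are group means, and the grey band is the background gauge of 5.36 to 5.71. Mpo, Elane, Ctsg and Prtn3 are high in LSK alone, and Cpa3 is above the band on all 18 arrays with its highest mean, 10.18, in CLP.

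Mpo (probe set 17254877, chromosome 11) makes hypochlorous acid in the phagosome. It read 4.8, 5.38 and 4.97 in CLP, 4.77, 5.41 and 5.04 in DN1, 5.1, 5.11 and 5.15 in DN2, 4.59, 4.97 and 5.2 in DN3, and 4.93, 5.41 and 5.5 in DN4, against 10.64, 10.57 and 10.01 in LSK. No lymphoma array was above its background gauge, and the groups did not overlap. The lymphoma mean was 5.09 ± 0.22, against 10.41 ± 0.348 in LSK (SD, n = 3 each). Mpo fell by 5.32 on the log2 scale (SE 0.179, adjusted p = 3.56e-08 by limma), and with the lymphoma arrays set to no less than their gauge it was at least 28.6-fold lower.

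Elane (probe set 17235011, chromosome 10) cuts elastin and bacterial proteins. It read 5.65, 5.76 and 5.71 in CLP, 5.69, 6.14 and 5.62 in DN1, 5.66, 5.84 and 6.02 in DN2, 5.72, 5.97 and 5.64 in DN3, and 5.79, 5.8 and 5.83 in DN4, against 10.73, 10.7 and 10.57 in LSK. Its lymphoma signal sat just above the gauge on 12 of 15 arrays. The means were 5.79 ± 0.101 in lymphoma and 10.67 ± 0.0815 in LSK (SD, n = 3 each), a difference of -4.88 (SE 0.101, adjusted p = 3.41e-09 by limma), or 29.4-fold lower in lymphoma. Among the 10 genes Elane had the smallest adjusted p in this comparison.

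Prtn3 (probe set 17235002, chromosome 10) is the next gene to Elane on the chromosome and encodes proteinase 3, a relative of elastase. It read 6.04, 5.86 and 5.77 in CLP, 6.01, 6.17 and 6.24 in DN1, 6.14, 5.84 and 6.4 in DN2, 5.68, 5.89 and 6.42 in DN3, and 6.02, 6.15 and 5.65 in DN4, against 10.4, 10.09 and 9.59 in LSK. All 15 lymphoma arrays were above their gauge, by little, and all lay far below LSK. The difference was -4.01 (SE 0.178, adjusted p = 1.97e-07 by limma), which is 16.1-fold lower. The surrounding genes differed far less: Plppr3, next to Prtn3, differed by -0.51 (adjusted p = 0.012), Ptbp1 by 0.27 (adjusted p = 0.104) and Med16, beyond Elane, by 0.43 (adjusted p = 0.0208).

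Ctsg (probe set 17306975, chromosome 14) encodes a protease of neutrophils and mast cells and lies in the locus of mast cell proteases and granzymes. It read 5.57, 5.88 and 5.7 in CLP, 5.64, 5.82 and 6.06 in DN1, 5.77, 5.7 and 5.46 in DN2, 5.21, 5.46 and 5.74 in DN3, and 5.35, 6.06 and 5.73 in DN4, against 9.12, 9.07 and 8.66 in LSK. The groups did not overlap, and 11 of 15 lymphoma arrays were above the gauge. Ctsg differed by -3.27 (SE 0.141, adjusted p = 1.57e-07 by limma), or 9.67-fold lower in lymphoma. Its neighbour Mcpt8, a basophil protease, also fell and, with 0 of 15 lymphoma arrays above background, was at least 3.7-fold lower (adjusted p = 0.00126), while Mcpt4 and Gzmd, on either side of the pair, stayed at 2.66 to 2.96 in all 6 groups, below the gauge.

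These 4 genes showed no detectable difference among the lymphoma fractions. The span between the highest and lowest fraction mean was 0.36 for Mpo, 0.13 for Elane, 0.38 for Ctsg and 0.26 for Prtn3, and the limma F test over the 15 lymphoma arrays gave adjusted p = 0.829, 0.975, 0.746 and 0.866. Each fraction on its own gave the same call against LSK, with Mpo lower by log2 values of -5.48 to -5.12, Elane by -4.96 to -4.83, Prtn3 by -4.14 to -3.88 and Ctsg by -3.48 to -3.11. The summed neutrophil marker signal was also lower in every fraction (201 to 401) than in LSK (905 to 2190), and its part in these differences was not tested. The 5 comparisons share the LSK arrays, so they are not separate evidence. Every alternative setting kept these 4 calls, with Mpo between -5.52 and -5.19 in the comparison of all fractions.

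**Figure D2:**
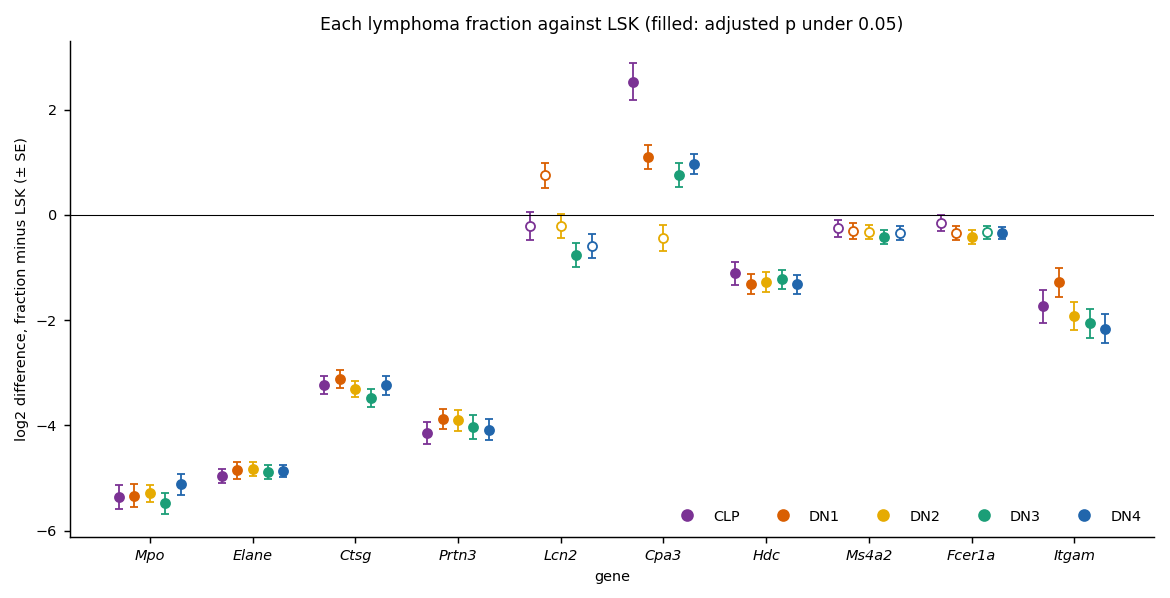
Log2 difference of each fraction from LSK with its limma SE, for the 10 granule genes; filled points have adjusted p under 0.05. The 4 primary granule genes lie at -3.11 or lower in all 5 fractions, and Cpa3 in CLP lies at 2.53.

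Counted per fraction, 6 of the 10 genes were called lower than LSK in CLP, where 11.2% of all genes were, and 6 in DN1 (12.3% of all genes). DN2 had 7 (14.0% of all genes), DN3 had 8 (13.1%) and DN4 had 7 (14.9%). Beyond the 6 genes of CLP and DN1, DN2 and DN4 added Fcer1a, and DN3 added Ms4a2 and Lcn2. Fcer1a and Ms4a2 were not above background on any array, and each of these added calls was lost in some alternative settings. Cpa3 was the 1 gene called higher in CLP (6.54% of all genes called higher), DN1 (7.45%), DN3 (11.4%) and DN4 (11.8%), and no granule gene was called higher in DN2 (11.4% of all genes called higher there).

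Cpa3 (probe set 17404337, chromosome 3), the carboxypeptidase of mast cell granules, was higher in the lymphoma than in LSK. It read 10.36, 9.41 and 10.78 in CLP, 9.08, 8.67 and 8.52 in DN1, 6.73, 7.33 and 7.57 in DN2, 8.29, 8.77 and 8.19 in DN3, and 8.69, 8.57 and 8.57 in DN4, against 8.15, 7.42 and 7.38 in LSK. The 3 CLP arrays were above all other arrays, and DN1, DN3 and DN4 were above LSK without overlap. For DN3 this was only just so, with 8.19 on DN3 array 3 and 8.15 on LSK array 1. DN2 reached into the LSK range. The lymphoma mean was 8.64 ± 0.0891, against 7.65 ± 0.435 in LSK (SD, n = 3 each), a difference of 0.98 (SE 0.189, adjusted p = 0.00346 by limma), or 1.98-fold higher.

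By fraction, Cpa3 rose by 2.53 in CLP (SE 0.349, adjusted p = 0.00107), a 5.78-fold difference from LSK, by 1.1 in DN1 (adjusted p = 0.00467), by 0.76 in DN3 (adjusted p = 0.0277) and by 0.96 in DN4 (adjusted p = 0.0028). In DN2 the difference was -0.44 (SE 0.239, adjusted p = 0.223). The DN3 call was lost without DN3 array 1 or 2 or LSK array 2 or 3, with adjusted p = 0.059 to 0.107, and in the model of all 18 arrays (adjusted p = 0.0683). The calls for CLP, DN1 and DN4 held in every setting. Without CLP the mean of the other fractions exceeded LSK by 0.6 (adjusted p = 0.0393).

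Within the lymphoma Cpa3 spanned 2.97 log2 units between CLP and DN2 (F test adjusted p = 2.88e-05), and 3 of the 10 granule genes were called by that test, where 7.88% of all genes were. In order, the means were 10.18 ± 0.703 in CLP, 8.76 ± 0.292 in DN1, 8.61 ± 0.07 in DN4, 8.41 ± 0.311 in DN3 and 7.21 ± 0.433 in DN2 (SD, n = 3 each). DN1, DN4 and DN3 overlap one another, and CLP and DN2 each stand clear. Against the mean of DN1 to DN4, Cpa3 was 1.94 higher in CLP (SE 0.224, adjusted p = 0.000152), the 1 granule gene called there, where 1.51% of all genes were called higher. It was lower in DN2 than in DN1 by log2 -1.54 (SE 0.283, adjusted p = 0.00785), 1 of 2 granule genes called lower against 0.645% of all genes. It was 1.2 higher in DN3 than in DN2 (SE 0.283, adjusted p = 0.0279), 1 granule gene against 1.3% of all genes. The step down to DN2 was lost without DN1 array 1 (adjusted p = 0.052) or DN2 array 1 (0.0546). The step up to DN3 was lost without DN2 array 1 or 2 or any one DN3 array (adjusted p = 0.0511 to 0.192).

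The other mast cell genes did not follow Cpa3. Hdc (probe set 17391094, chromosome 2) read 3.92 to 4.49 on the lymphoma arrays, with a median of 4.16, against 5.81, 5.33 and 5.05 in LSK. All lymphoma arrays were below background, and so were 2 of the 3 LSK arrays. The signal differed by -1.25 (SE 0.17, adjusted p = 0.000403 by limma), which at this level gives no fold. Ms4a2 (probe set 17362986, chromosome 19) read 4.14 to 4.49 in lymphoma, against 4.82, 4.52 and 4.48 in LSK (difference -0.33, adjusted p = 0.0593). Fcer1a (probe set 17229974, chromosome 1) read 3.22 to 3.81, against 3.78, 3.7 and 3.79 (difference -0.32, adjusted p = 0.0249). Both genes were not above background on any of the 18 arrays, so the alpha and beta chains of the IgE receptor were not detectable in any group. The Fcer1a call was lost without any one lymphoma number or without LSK array 1 (adjusted p = 0.0516 to 0.0922) and with the replicate number as a block (0.0509).

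Of 16 measured genes on a wider list of mast cell and basophil genes, 6 fell, 0 rose and 10 did not pass, where 15.8% of all genes were called lower and 13.1% higher. Their median was -0.1, against 0.05 over all genes. The IgE receptor gamma chain Fcer1g, above background on all 3 LSK arrays and on 0 of 15 lymphoma arrays, was at least 5.8-fold lower (adjusted p = 9.24e-07). The vesicular monoamine transporter Slc18a2, which loads histamine and serotonin, differed by -3.62 (SE 0.273, adjusted p = 7.13e-06). Slc18a2 was above background on 1 of 15 lymphoma arrays, so the floor of the arrays limits that difference. Mcpt8 is given above, and Kit, the receptor of stem cell factor, is 1 of the 6 but was used in the sort and is no finding. Of 6 measured mast cell and basophil markers (Cma1, Mcpt4, Mcpt8, Tpsb2, Prss34, Cd200r3), none was above background on any lymphoma array, and their summed linear signal was 123 to 153 in the fractions and 193 to 587 in LSK. Within CLP that sum was 138 to 153, and since all 6 are below background there, it mostly reflects the floor of the arrays. The part of mast cells in the Cpa3 signal was not tested.

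**Figure D3:**
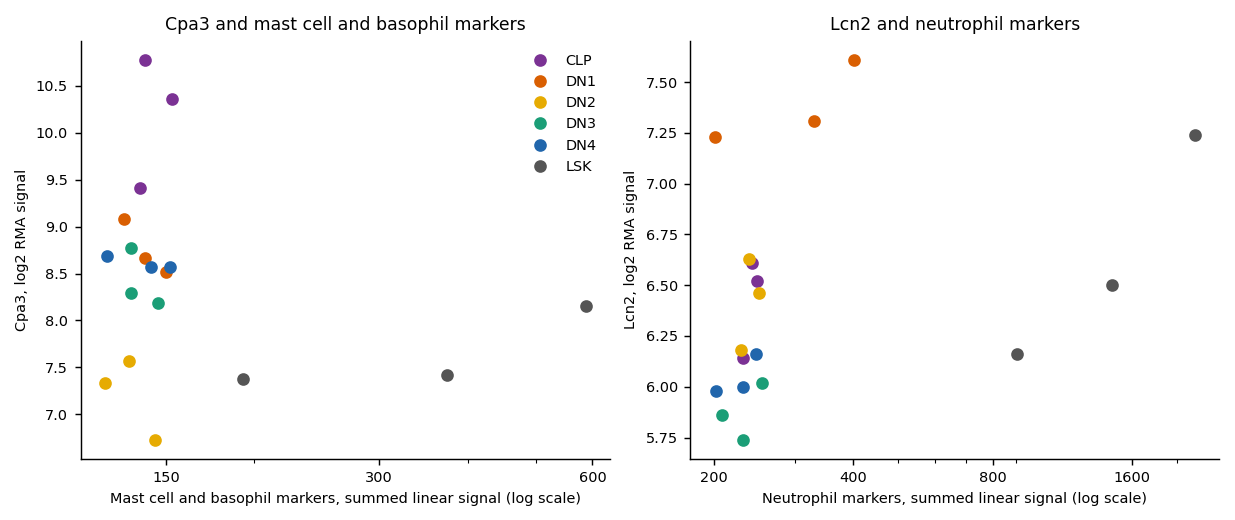
Left, Cpa3 log2 signal against the summed linear signal of mast cell and basophil markers; right, Lcn2 against neutrophil markers; 1 point per array, log horizontal axes. CLP arrays carry the highest Cpa3 at marker sums of 138 to 153, and DN1 arrays carry high Lcn2 at marker sums of 201 to 401.

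The genes next to Cpa3 on chromosome 3 changed far less. Gyg (glycogenin) differed by 0.37 from LSK (SE 0.114, adjusted p = 0.0374), Hltf by -0.27 (adjusted p = 0.154), and Cpb1, a pancreatic carboxypeptidase, by 0.27 (adjusted p = 0.146) with 0 lymphoma arrays above the gauge. Over the 18 arrays, after each gene's own mean was subtracted, the genes closest to Cpa3 were Scel (root mean square difference 0.571), Ociad2 (0.656), Adm (0.684), Zfp781 (0.691) and Ly6d (0.711). All 5 had their highest group mean in CLP, such as 7.75 for Ly6d, whose means were 6.08 in DN1 and 5.81 in DN2, then 7.47 in DN3 and 7.18 in DN4, against 6.52 in LSK. Scel, the closest, had group means of 3.08 in LSK to 4.62 in CLP, all below the lowest gauge of 5.36. The genes closest to Mpo were Pla2g4a (0.299), Btk (0.312), Chad (0.332), Cd34 (0.335) and Ybx3 (0.354). Each was high in LSK alone, which likewise follows from the choice by closeness to Mpo.

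Lcn2 (probe set 17383892, chromosome 2) was not called between the lymphoma mean and LSK but differed among the fractions. It read 6.14, 6.61 and 6.52 in CLP, 7.23, 7.61 and 7.31 in DN1, 6.18, 6.63 and 6.46 in DN2, 5.86, 5.74 and 6.02 in DN3, and 5.98, 6.0 and 6.16 in DN4, against 6.5, 7.24 and 6.16 in LSK. DN1 lay above the other fractions on every array, and LSK array 2 came up to the lowest DN1 array. The mean lymphoma difference from LSK was -0.21 (SE 0.232, adjusted p = 0.55), and it was 0.1 without LSK array 2.

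Among the fractions Lcn2 spanned 1.52 log2 units (F test adjusted p = 3.49e-05), with means of 7.39 ± 0.201 in DN1, 6.42 ± 0.25 in CLP, 6.42 ± 0.223 in DN2, 6.05 ± 0.098 in DN4 and 5.87 ± 0.14 in DN3 (SD, n = 3 each). It was lower in DN2 than in DN1 by -0.96 (SE 0.159, adjusted p = 0.00376), and lower in DN4 than in DN1 by -1.34 (SE 0.159, adjusted p = 2.1e-05), where 2 granule genes were called lower against 2.79% of all genes. In DN3 against DN2 the difference was -0.55 (adjusted p = 0.0991), and adjusted p = 0.0499 with the replicate number as a block, or 0.0487 without CLP array 1. Against LSK, Lcn2 was lower in DN3 (log2 -0.76, adjusted p = 0.0338), a call lost under quantile normalization (0.0611) and without DN3 array 1, 2 or 3 or LSK array 1 or 2 (adjusted p = 0.0528 to 0.0994). In DN1 the difference was 0.75 (SE 0.243, adjusted p = 0.0534), which passed with the filter on low values, quantile normalization, the block, all 18 arrays in 1 model and without LSK array 2 (adjusted p = 0.00381 to 0.0348).

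Neutrophil markers stood beside this pattern in part. The summed linear signal of 9 markers was 201, 401 and 329 on DN1 arrays 1, 2 and 3, and 202 to 255 on the other lymphoma arrays, against 1450, 2190 and 905 in LSK. DN1 array 1, with the sum of 201, had an Lcn2 signal of 7.23. S100a8, Ltf, Camp, Csf3r, Retnlg and Ly6g were not above background on any DN1 array, so low sums mostly reflect the floor of the arrays. The secondary granule gene Ngp was at 4.79, 7.09 and 6.48 on the 3 DN1 arrays, while Ly6g was not above background in any group. The part of these markers in the Lcn2 and Itgam results was not tested.

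Itgam (probe set 17483577, chromosome 7) was lower in every fraction than in LSK, and within the lymphoma was highest in DN1. It read 6.35, 6.09 and 6.6 in CLP, 6.68, 6.88 and 6.85 in DN1, 6.11, 6.33 and 6.01 in DN2, 5.98, 5.93 and 6.16 in DN3, and 6.24, 5.89 and 5.64 in DN4, against 8.26, 8.65 and 7.33 in LSK. No lymphoma array reached the lowest LSK array. The lymphoma mean was 6.25 ± 0.0247, against 8.08 ± 0.679 in LSK (SD, n = 3 each), a difference of -1.84 (SE 0.271, adjusted p = 0.000691 by limma), or 3.57-fold lower. Lineage markers were part of the sort, and the sources used here do not name them, so CD11b may or may not be among them.

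Among the fractions Itgam spanned 0.88 (F test adjusted p = 0.0114), a call lost without DN1 array 2 (adjusted p = 0.0608) or 3 (0.0515). It was lower in DN4 than in DN1 by -0.88 (SE 0.166, adjusted p = 0.00239). Its partner chain did the opposite of Itgam: Itgb2 rose by 2.58 in the lymphoma (SE 0.105, adjusted p = 1.13e-07), with means of 9.64 in lymphoma and 7.06 in LSK. Itgal, the alpha chain of LFA-1 that pairs with Itgb2 on lymphocytes, rose by 1.33 (SE 0.21, adjusted p = 0.00103). In DN4 against DN3 none of the 10 granule genes was called by limma, 0 of them had an unadjusted p under 0.05, and 1 gene of all 22180 (0.00451%) was called.

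Of 10 genes of primary granule cargo and handling, 7 fell and 1 rose, against 15.8% and 13.1% of all genes. Their median was -0.97, against 0.05 over all genes. The tetraspanin Cd63 of granule membranes fell by 6.12 (SE 0.198, adjusted p = 2.87e-08), and the lysosomal enzyme subunit Hexa differed by -3.86 (SE 0.107, adjusted p = 1.13e-08). Cd63 was above background on 9 of 15 lymphoma arrays and Hexa on 2, so the floor of the arrays limits both differences. The elastase inhibitor Serpinb1a was at least 9.67-fold lower (adjusted p = 4.49e-08), and the granule proteoglycan serglycin, Srgn, differed by -1.22. The exception, named after its value was seen, was Prss57, a serine protease stored with elastase in human neutrophils, which rose by 1.1 (SE 0.172, adjusted p = 0.000977). Prss57 read 6.93 to 8.7 on the lymphoma arrays, against 7.21, 6.69 and 6.56 in LSK, and CLP array 1 (6.93) and DN1 array 2 (7.17) lay inside the LSK range. None of the 10 differed among fractions (0 by the F test, 0 at an unadjusted p under 0.05). That F test called 7.88% of all genes.

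Secondary and tertiary granule genes fell in 9 of 16 cases and rose in 0 (median -1.29), against 15.8% and 13.1% of all genes. Cybb, the catalytic subunit of the phagocyte oxidase, fell by 1.76 (SE 0.134, adjusted p = 7.42e-06), Anxa1 was at least 7.24-fold lower (adjusted p = 9.25e-06), the histone deiminase Padi4, not above background on any lymphoma array, was at least 3.14-fold lower (adjusted p = 0.000443), and haptoglobin, Hp, differed by -1.48. Cybb was above background on 2 of 15 lymphoma arrays. The LSK arrays spread widely on this list: Ngp read 8.14, 9.27 and 5.53 in LSK and S100a8 6.79, 7.55 and 4.88. Ngp did not pass (difference -2.13, SE 0.739, adjusted p = 0.058). LSK array 3 was the lowest LSK array for 9 of the 10 granule genes as well, and array 1 the highest for 7.

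**Figure D4:**
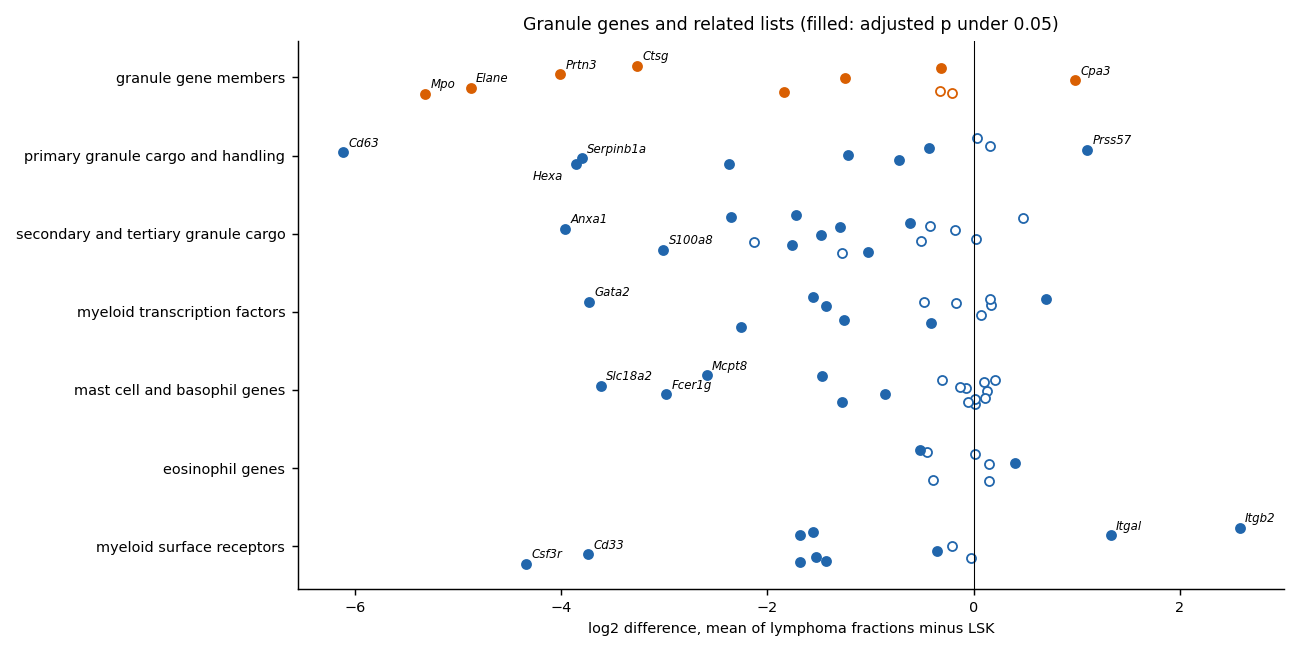
Log2 difference between the mean of the lymphoma fractions and LSK for the 10 granule genes (orange) and the related lists (blue), 1 point per gene with vertical scatter for legibility; filled points have adjusted p under 0.05. Most called genes lie left of 0, and the called genes Cpa3, Prss57, Gfi1, Il5ra, Itgal and Itgb2 lie right of it.

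Of 12 myeloid transcription factors 6 fell and 1 rose (median -0.45), against 15.8% and 13.1% of all genes. Gata2, a factor of stem cells and mast cells, was at least 6.48-fold lower (adjusted p = 2.53e-08). Irf8 differed by -2.26, Mitf by -1.56 and Spi1, which encodes PU.1, by -1.43 (SE 0.0927, adjusted p = 2.57e-06). Mitf was above background on 1 of 15 lymphoma arrays. Spi1 read 5.4 to 5.98 on the lymphoma arrays, against 7.19, 7.24 and 7.26 in LSK. The 1 that rose was Gfi1, a repressor needed for neutrophil maturation that also acts in T cells, by 0.7 (SE 0.115, adjusted p = 0.00136). Cebpe, the factor of secondary granules, lay at 5.25 to 5.51 in all group means and did not pass (adjusted p = 0.229).

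Of 12 measured myeloid surface receptors 8 fell and 2 rose, namely Itgb2 and Itgal, against 15.8% and 13.1% of all genes. The G-CSF receptor Csf3r was at least 14.0-fold lower (adjusted p = 4.49e-08), and Cd33 was at least 9.89-fold lower (adjusted p = 1.01e-07). The shared beta chain of the IL-3, IL-5 and GM-CSF receptors, Csf2rb, differed by -1.68, with 3 of 15 lymphoma arrays above background. Of 7 measured eosinophil genes 1 fell (Siglecf, -0.52) and 1 rose (Il5ra, 0.4), both below background on all 18 arrays, shares close to the 15.8% and 13.1% of all genes. Prg2, the eosinophil major basic protein, differed among fractions (F test adjusted p = 0.000295), with 6.33, 5.74 and 5.49 in DN1 and 4.29 to 4.9 in the other fractions, against 6.25, 4.75 and 4.72 in LSK. Of the lymphoma arrays, 2 were above background for Prg2.

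The F test among fractions, which called 7.88% of all genes, called 2 of 16 secondary and tertiary granule genes, 3 of 12 myeloid transcription factors, and 1 gene each of the mast cell, eosinophil and surface receptor lists. DN1 had the highest fraction mean for Slpi (7.07, adjusted p = 0.048), Cybb (5.71, adjusted p = 0.00228), Cebpd (6.12, adjusted p = 0.000207), Ly6c2 (10.6, adjusted p = 6.69e-07), Prg2 (5.86) and the sort marker Kit (10.77). Cybb was above background on 2 lymphoma arrays and Cebpd on 4. DN1 had the lowest fraction mean for the remaining 2, the transcription factors Runx1 (9.36, adjusted p = 0.00702) and Myb (10.59, adjusted p = 0.0304).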

How the data were processed

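RNA of 18 sorted samples (RNeasy Micro kit, WT Pico amplification, per the labels' protocols) was measured on Affymetrix arrays. Each deposited value is the log2 signal of a probe set after RMA; the submitters' processing notes name oligo as the authors' tool, and its version and the genome build are not given in the sources used here. No further normalization was applied. Of 41345 probe sets, 23521 carry 1 symbol in the platform annotation, 1814 several and 16010 none; the last 2 kinds were left out. The brightest probe set by mean over 18 arrays stood for each gene, leaving 22180 genes; each granule gene has 1 probe set.

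Comparisons used limma 3.58.1 in R 4.3.3 (linear models with moderated two-sided tests, p values adjusted after Benjamini-Hochberg over the 22180 genes, calls at adjusted p under 0.05), on 3 against 3 values for LSK comparisons and on 15 arrays among fractions. All single-gene p values are adjusted p values from limma unless called unadjusted, and SE is limma's. The code was tested on simulated data. The number of arrays limits the precision. The members and lists were chosen with earlier results of these data known. Named genes are all 10 members, up to 4 genes of each list with the smallest p and the 5 genes closest to Mpo and to Cpa3. S100a8, Ngp, Ly6g, Prss57, Gfi1, Cebpe, Itgal, Prg2, Slpi, Cebpd, Ly6c2, Runx1, Myb and the chromosomal neighbours were named after their values were seen. Motif letters were also chosen then.

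Arrays of the same replicate number deviated together between DN1 and DN2, DN2 and DN3, and DN3 and DN4 (every correlation at least 0.101), but not in every pair with CLP or LSK (lowest -0.281). The main fits use no block. Results were recomputed with quantile normalization, with a filter that drops genes of low signal, with a gene's probe sets averaged, with limma's trended robust prior, with a block for the replicate number, with 1 model of all 18 arrays, and without each array, replicate number or fraction in turn.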

Additional observations from a re-analysis of the deposited data

Results flagged for a closer look

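The difference from LSK was not the same in all fractions for 3 of the 10 genes, by the F test over the 15 lymphoma arrays. For Cpa3 (adjusted p = 2.88e-05 by limma) the difference ran between 2.53 in CLP and -0.44 in DN2. For Lcn2 (adjusted p = 3.49e-05) it ran between 0.75 in DN1 and -0.76 in DN3. For Itgam (adjusted p = 0.0114) it ran between -1.28 in DN1 and -2.16 in DN4. No single-array outliers were looked for, since every group has 3 arrays.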

How the results depend on the processing

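The calls of Mpo, Elane, Ctsg, Prtn3, Hdc and Itgam against LSK held in every alternative run in which the gene was kept, and so did Cpa3 in CLP, DN1, DN4 and the lymphoma mean. The filter on low values removed Hdc, Ms4a2 and Fcer1a and kept 7 of the 10 genes. Granule genes called lower in the lymphoma mean numbered 5 to 8 over all alternatives, against 7. With the replicate number as a block, no granule gene changed sign, the number called higher in DN1 against LSK was 2 (Lcn2 joined) and the number called lower in DN3 than in DN2 was 1, against 0, while Fcer1a lost its call in the lymphoma mean (adjusted p = 0.0509) and in DN4 (0.0592), as did Ms4a2 in DN3 (0.0634). The number called higher in DN1 was also 2, against 1, with the filter, quantile normalization and all 18 arrays in 1 model; that model gave 0 higher in DN3, against 1, and 6140 called genes in CLP against LSK, against 3928. Leaving out 1 array at a time gave 2559 to 4598 called genes for CLP against LSK (2559 without LSK array 1), 144 to 437 for DN2 against DN1 (144 without DN2 array 2 and 168 without DN2 array 3), 1 to 2 for DN4 against DN3 (2 without DN3 array 1) and 609 to 1939 for CLP against DN1 to DN4 (1939 without CLP array 1, 609 without CLP array 2). It gave 1 to 2 granule genes higher in DN1 and 0 to 1 in DN3 against LSK, 1 to 3 lower in DN2 than DN1, and 0 to 1 lower and 0 to 1 higher in DN3 than DN2. Lcn2 changed sign without LSK array 2, at 0.1 in the lymphoma mean and 0.09 in CLP and in DN2, and was lowest without LSK array 3, at -0.44 in the lymphoma mean and -0.45 in CLP and in DN2. The causes were not tested.

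Signals of Hdc, Ms4a2 and Fcer1a lie near or below background, so their differences are not folds. Tissue, age and genotype differ with the groups. With 3 arrays a group, small differences among fractions could not be detected.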
